A study of Drosophila melanogaster with 2 samples.

Results

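The promoters described here are transcription start sites (TSSs) of annotated long noncoding RNA genes that lie away from protein-coding promoters, and the measurement is binding of Glass by chromatin immunoprecipitation and sequencing (ChIP-seq). The TSSs were taken from every noncoding gene of Drosophila melanogaster whose symbol starts with lncRNA: or asRNA:, whose transcript has at least 200 bp of exons, and which is on arm 2L, 2R, 3L, 3R, 4 or X. They were kept where no protein-coding TSS lay within 1 kb. This left 1829 TSSs of 1729 genes, out of 2609 TSSs of 2447 such genes, and the other 780 TSSs had a protein-coding TSS within 1 kb. Of those kept, 1607 belong to lncRNA genes and 222 to asRNA genes, the prefix for transcripts antisense to another gene. The rule also allowed symbols starting with CR alone, which matched 0 of these TSSs. A window of 1 kb to both sides of each TSS was read for peak summits, the base of a peak with the most signal. The rule used the annotation only and no measured value.

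The samples are 2 biological replicates of 1 group: whole pupae, 24 hour old, of a transgenic line that stably expresses Glass, the product of gl, with GFP at its C terminus. Male and female animals were pooled, and chromatin was sheared to 200 to 800 bp by sonication. The promoter that drives the transgene is not given in the sources used here. Whole animals hold many cell types that cannot be told apart in the peaks. The free-text description of both samples names an input control, whereas the antibody target, the assay name and the peak lists name gl itself, so they were read as ChIP libraries. The lists are in the dm6 build: 30000 entries for each replicate, 30000 for the pooled replicates, and an optimal list of 4809 peaks that the authors thresholded for reproducibility. The lists of 30000 hold weak entries too, and the pooled one is labelled as peaks and background. Both replicates share a control, the number of reads is not given in the sources used here, and the depth behind each peak is therefore unknown. Results on replicates used the 4809 strongest peaks of each list. With 2 replicates of 1 group no test between groups exists, so all comparisons between sets of TSSs are descriptions. Intervals on shares are 95% Wilson intervals and intervals on densities are exact Poisson intervals. Both cover counting error only.

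Glass is a zinc finger transcription factor known for its role in the differentiation of photoreceptors and other cells of the fly eye. Long noncoding RNAs are mostly transcribed by RNA polymerase II, carry no long reading frame, and have been given roles in chromatin regulation, nuclear bodies and as primary transcripts of microRNAs, although most of those annotated in the fly have no known function. A peak in a promoter window shows that the tagged protein, or chromatin bound to it, was recovered there. It does not show which gene the site serves, and many windows lie in introns of, or beside, protein-coding genes.

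The strongest peaks at these promoters are shown first by their sequence, since they are the sites where the measurement is largest. Each line gives the 101 bp around an optimal summit on the plus strand of dm6, read from the NCBI copy of the assembly, for 6 of the strongest summits, counting 1 per gene. Capitals mark a match to any of the 9 short motifs searched, on either strand.
lncRNA:let7C, chr2L:18456224-18456324: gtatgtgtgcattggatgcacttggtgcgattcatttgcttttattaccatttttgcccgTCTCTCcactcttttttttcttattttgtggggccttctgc
lncRNA:CR44713, chr3L:11246174-11246274: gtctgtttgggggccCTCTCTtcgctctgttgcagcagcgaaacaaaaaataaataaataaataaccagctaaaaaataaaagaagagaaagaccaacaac
lncRNA:CR46035, chr3R:17704380-17704480: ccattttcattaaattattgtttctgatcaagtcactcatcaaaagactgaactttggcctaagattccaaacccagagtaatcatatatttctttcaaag
lncRNA:CR46090, chr3R:23334372-23334472: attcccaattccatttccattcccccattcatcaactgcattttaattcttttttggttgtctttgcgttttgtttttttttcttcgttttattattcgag
lncRNA:CR44619, chrX:12751341-12751441: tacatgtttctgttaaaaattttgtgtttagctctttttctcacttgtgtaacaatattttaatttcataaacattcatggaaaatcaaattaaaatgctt
lncRNA:CR31044, chr3R:29214392-29214492: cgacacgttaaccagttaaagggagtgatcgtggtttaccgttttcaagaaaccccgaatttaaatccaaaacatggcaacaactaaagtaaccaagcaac
Of these 6 sequences, let7C holds the letters GAGAGA and CR44713 the letters AGAGAG, both read on the minus strand. The GC content of these sequences went as low as 22.8% at lncRNA:CR44619 and as high as 41.6% at lncRNA:let7C. The other 4 hold none of the motifs searched.

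Glass summits lay at about 1 in every 10 of these promoters, a smaller share than at protein-coding TSSs. An optimal summit lay within 1 kb of 194 of the 1829 lncRNA promoters, 10.6% (9.28% to 12.1%), against 3441 of 19607 protein-coding TSSs, 17.5% (17.0% to 18.1%), and 17.1% of all 22216 TSSs. Counted by gene, 184 of 1729 lncRNA genes, 10.6%, had a summit. The share at protein-coding TSSs that lie apart from other protein-coding genes was 14.6% (14.0% to 15.3%), or 1788 of 12207. The lncRNA TSSs left out for a protein-coding TSS within 1 kb had 155 of 780, or 19.9% (17.2% to 22.8%).

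The replicates gave the same order. Among the strongest peaks of replicate 1, 210 lncRNA promoters had a summit, or 11.5%, against 17.0% of protein-coding TSSs and 16.7% of all TSSs. In replicate 2 it was 190 lncRNA promoters, or 10.4%, against 18.0% of protein-coding TSSs and 17.4% of all. The mean over replicates was 10.9% ± 0.773 at lncRNA promoters and 17.5% ± 0.660 at protein-coding TSSs (SD, n = 2 each). The gap between these 2 sets was larger than the spread between replicates. It was smaller to protein-coding TSSs apart from other protein-coding genes, with 13.8% in replicate 1 and 15.8% in replicate 2. Their mean was 14.8% ± 1.44 (SD, n = 2). With all 30000 pooled entries, 732 lncRNA promoters had a summit, or 40.0%, against 56.3% of all TSSs. That list holds background as well as peaks, so these are not shares with a called peak. Its −log10 q values, the authors' measure of significance, go down to 0.295, and 6290 entries have the highest, 4.10.

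**Figure D1:**
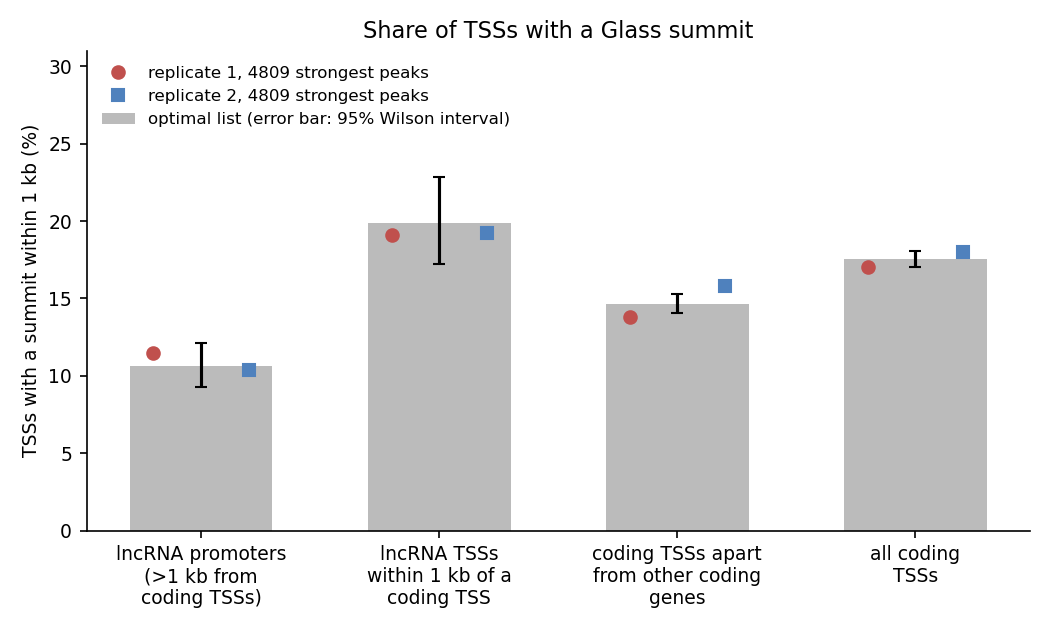
Percent of TSSs with a summit within 1 kb, by set of TSSs. Bars show the optimal list with its 95% Wilson interval and points show the 4809 strongest peaks of each replicate. The lncRNA promoters at the left have 10.6% in the optimal list, below the 14.6% to 19.9% of the other sets, and both replicates show the same order.

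Per length of sequence, summits were denser at lncRNA promoters than in sequence outside the windows and more than 1 kb from protein-coding TSSs. The windows cover 3.28 Mb and hold 212 optimal summits, 4.41% of the list, a density of 64.6 per Mb (56.2 to 74.0). The rest of the sequence more than 1 kb from every protein-coding TSS had 23.0 per Mb (22.0 to 23.9), so the ratio was 2.82. The same ratio was 2.87 in replicate 1 and 2.94 in replicate 2. Some window sequence itself lies within 1 kb of a protein-coding TSS. In the 3.07 Mb of windows that do not, the density was 62.2 per Mb, a ratio of 2.71. Sequence within 1 kb of a protein-coding TSS had 82.4 per Mb. Within introns the lncRNA windows had 74.4 per Mb, against 34.7 in other introns, a ratio of 2.14. Outside protein-coding genes they had 64.1 per Mb, against 18.0 elsewhere, a ratio of 3.57.

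The density fell off gradually with distance and not at the edge of the window. In sequence more than 1 kb from protein-coding TSSs there were 70.2 optimal summits per Mb within 200 bp of a lncRNA promoter and 72.2 between 200 and 500 bp. The density was 51.4 between 500 and 1000 bp, 44.0 between 1000 and 2000 bp and 33.7 between 2000 and 5000 bp. It was 20.1 more than 20000 bp away, where 71.5 Mb of this sequence lies. In introns the density was 50.2 per Mb between 2000 and 5000 bp, against 32.0 beyond 20000 bp, so that sequence around these promoters was already dense in summits well outside the windows.

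**Figure D2:**
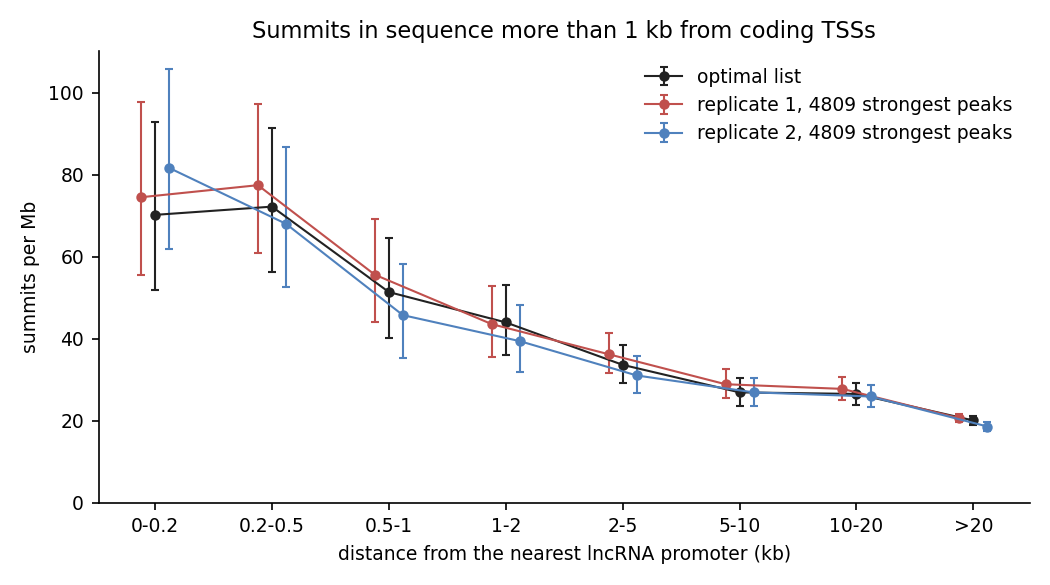
Optimal summits per Mb (black) and strongest replicate summits per Mb (red, blue) by distance from the nearest lncRNA promoter in kb, in bins of unequal width, in sequence more than 1 kb from protein-coding TSSs. Error bars are exact 95% Poisson intervals. The optimal list has 70.2 and 72.2 per Mb in the nearest bins, 33.7 between 2 and 5 kb and 20.1 beyond 20 kb.

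Summits did not gather at the start site of lncRNA genes as they did at protein-coding genes. The median distance of a summit to the TSS within the window was 447 bp at lncRNA promoters and 257 bp at protein-coding TSSs. Counted per kb of sequence and per 1000 TSSs, summits within 500 bp numbered 75.5 at lncRNA promoters, against 50.7 between 3 and 5 kb, a ratio of 1.49. At protein-coding TSSs these values were 136.5 and 46.7, a ratio of 2.92, and at protein-coding TSSs apart from other protein-coding genes the ratio was 2.54. The ratio at lncRNA promoters was 1.60 in replicate 1 and 1.54 in replicate 2, against 2.94 in both at protein-coding TSSs.

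The side of the start site also differed. At lncRNA promoters 122 summit and TSS pairs were downstream and 116 upstream, 51.3% downstream (44.9% to 57.5%). At protein-coding TSSs 1331 pairs were downstream and 2495 upstream, 34.8% downstream (33.3% to 36.3%), and at those apart from other protein-coding genes 35.8% were downstream. Replicate 1 had 50.9% downstream at lncRNA promoters, against 32.2% at protein-coding TSSs. Replicate 2 had 52.5% downstream at lncRNA promoters, against 39.4% at protein-coding TSSs.

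**Figure D3:**
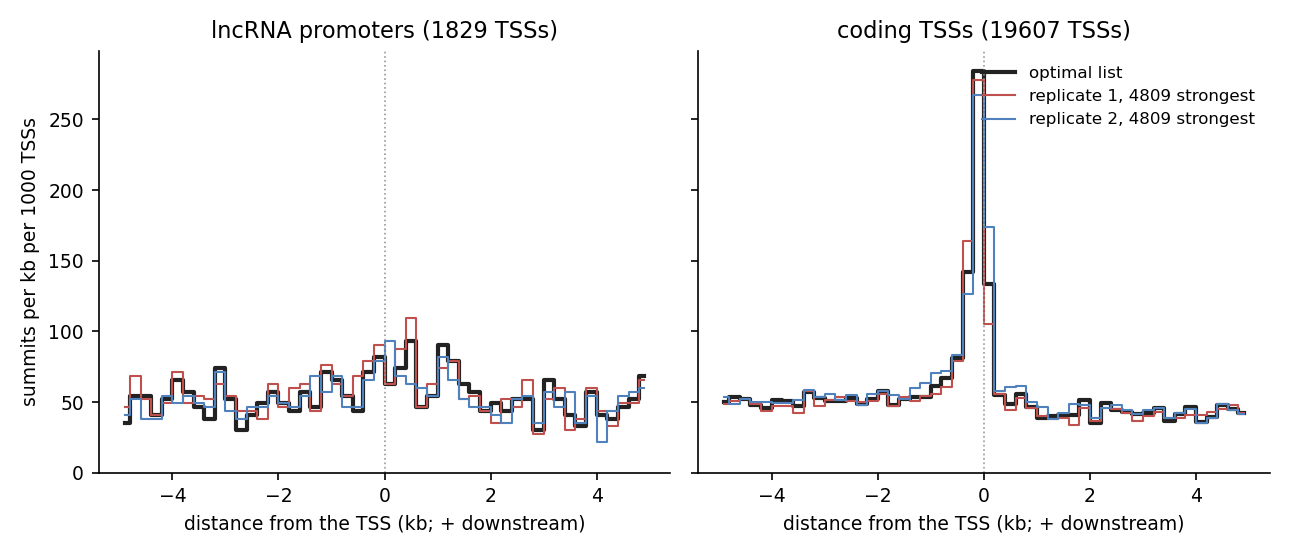
Summits per kb and per 1000 TSSs by signed distance from the TSS in kb, in bins of 200 bp, for lncRNA promoters (left) and protein-coding TSSs (right), in the optimal list and the 4809 strongest peaks of each replicate. Protein-coding TSSs have a sharp maximum just upstream of the TSS, and lncRNA promoters a low and broad one on both sides.

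The peaks at lncRNA promoters were somewhat stronger than other distal peaks. The signal value, the authors' measure of peak height and used here within a list only, had a median of 237.9 for the 212 summits in the windows, from 127.1 to 2366. The 2380 other summits more than 1 kb from protein-coding TSSs had a median of 196.8, and all 4809 had 200.4. Of the 212, 59.9% were in the stronger part when the list is split at its median, and 8 were among the 100 strongest of the list. Among those 100 were also 31 of the 2380 other distal summits and 61 of the 2217 other summits within 1 kb of a protein-coding TSS. The 500 strongest held 12.3% of the 212, 8.66% of the 2380, 12.1% of the 2217 and 10.4% of all. In replicate 1 the median was 134.7 in the windows, against 115.7 at other distal summits. In replicate 2 it was 102.6 in the windows, against 92.5 at other distal summits. The quartiles overlap widely in all 3 lists: in the optimal list they were 167.7 and 377.9 in the windows, against 153.5 and 293.9 at other distal summits.

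Most windows with a summit held a single one. Of the 1829 windows, 1635 held none, 156 held 1 summit, 32 held 2 and 6 held 3. Windows overlap where promoters are close, and 16 of the 212 summits lay in windows of several genes. Of the 212 summits, 138 lay outside protein-coding genes, 68 in an intron and 6 in a noncoding exon. Thus 65.1% were outside protein-coding genes, against 27.1% of the 2380 other distal summits. The windows themselves also lie there more often. More than 1 kb from protein-coding TSSs, 2.00 of 3.07 Mb of window sequence was outside protein-coding genes, against 35.9 of 103.7 Mb of the rest. A protein-coding TSS lay within 1 kb of 21 of the 212 summits, although none lay within 1 kb of the lncRNA TSSs themselves.

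Most summits of each replicate at these promoters were found in the other replicate. Of the 224 summits of replicate 1 in the windows, 146 matched a strong summit of replicate 2 at 200 bp or less, or 65.2% (58.7% to 71.1%). Of the 208 summits of replicate 2, 146 were found in replicate 1, or 70.2% (63.7% to 76.0%). At other summits more than 1 kb from protein-coding TSSs these shares were 59.4% and 65.0%, and at other summits within 1 kb of one they were 68.3% and 61.4%. The full replicate lists reach down to −log10 q values of 0.330 in replicate 1 and 0.278 in replicate 2, so an entry there can be weak. The optimal list is made from both replicates, and 208 of its 212 summits here had an entry in both full replicate lists. A total of 137 were among the strongest of both replicates, 44 of replicate 1 alone, 30 of replicate 2 alone and 1 of neither. By window, 150 promoters had a summit in both replicates, 60 in replicate 1 alone and 40 in replicate 2 alone. Ranks in both replicates went together loosely, with a Spearman rho of 0.42 over the 208 peaks, given as a description because these peaks were selected on both replicates.

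**Figure D4:**
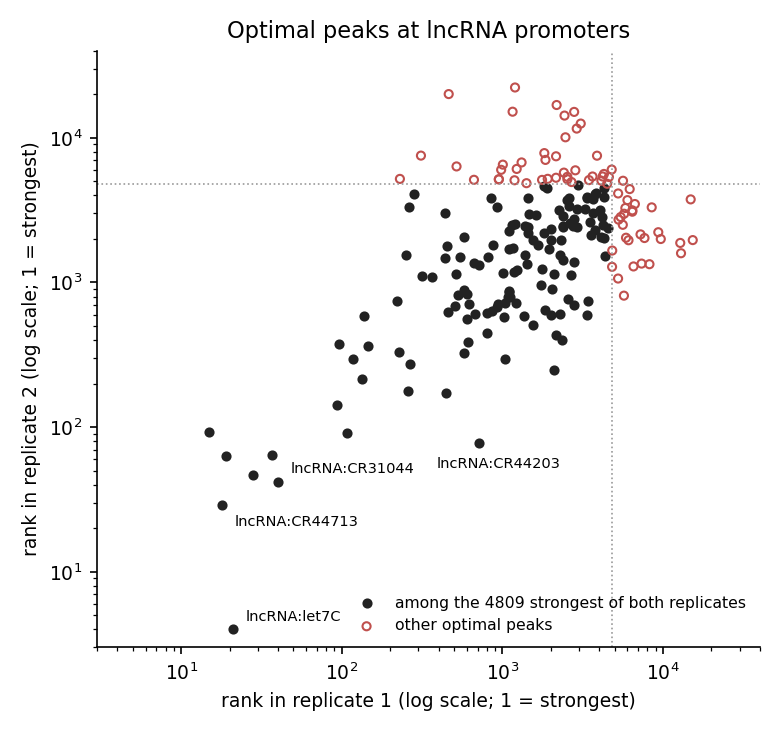
Rank of each of the 208 optimal peaks at lncRNA promoters in replicate 1 (x axis) and replicate 2 (y axis), both on log scales, with 1 the strongest. Dotted lines mark rank 4809. The peak of lncRNA:let7C stands at ranks 21 and 4, and most other peaks lie between ranks 100 and 10000 in both.

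The strongest of these peaks was at lncRNA:let7C, the primary transcript of let-7, mir-100 and mir-125, which are microRNAs that time development and are known to come on at metamorphosis. Its summit at chr2L:18456274 lay 557 bp downstream of the TSS, with a signal value of 2366, the 7th of the 4809 peaks. It had a signal value of 962.4 in replicate 1, rank 21, and 1419 in replicate 2, rank 4, so both replicates placed it near the top. Weaker optimal summits lay 1420 bp and 4222 bp downstream, with signal values of 300.6 and 253.1.

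Transcripts that hold microRNA genes, let7C among them, had summits at a higher share than other members. A miRNA gene lay on the same strand within 33 member genes, and 10 of them, 30.3% (17.4% to 47.3%), had an optimal summit, against 174 of the 1693 genes that hold neither a miRNA nor a snoRNA gene, 10.3% (8.92% to 11.8%). This split was chosen after the values had been seen and rests on 10 genes. By TSS it was 15 of 60 TSSs of transcripts with small RNA genes, 25.0%, against 179 of 1769 others, 10.1%. Replicate 1 gave 25.0%, against 11.0% of the others, and replicate 2 gave 23.3%, against 9.95%.

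The second microRNA transcript was lncRNA:CR31044, which holds mir-279 and mir-996, of which mir-279 is known for limiting the number of CO2-sensing neurons. Its summit lay 120 bp upstream of the TSS with a signal value of 1413, rank 39, and it ranked 40 in replicate 1 and 42 in replicate 2. The transcript lncRNA:Hsromega, which holds mir-4951, had a signal value of 381.0. The transcript of mir-282 (lncRNA:CR43626) had a signal value of 396.0, rank 311 in replicate 1 and 7536 in replicate 2, so it rested mainly on replicate 1. The transcript of mir-275 (lncRNA:CR43857) had 297.4 and went the other way, with rank 5708 in replicate 1 and 811 in replicate 2. Those of mir-8 (lncRNA:CR43650), a microRNA that acts in growth and in the nervous system, and mir-276a (lncRNA:CR46006) had 201.5 and 200.7.

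Lower still were the transcripts of mir-14 (lncRNA:CR43651) at 152.3, bantam (lncRNA:CR43334), a microRNA that promotes growth and blocks cell death, at 144.1, and mir-1 (lncRNA:CR45361), the muscle microRNA, at 137.7. The summit at lncRNA:CR43334 ranked 14863 in replicate 1 and 3754 in replicate 2. These 3 lie near the lowest signal value of the optimal list, 127.0. The other 23 genes had no optimal summit in their windows, among them those of mir-9a, mir-124, mir-184, mir-315 and mir-iab-4. None of the 3 genes with snoRNA genes alone had a summit, too few to limit the share.

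Of 18 member genes known from the literature, 4 had an optimal summit, 22.2% (9.0% to 45.2%), against 10.6% of all member genes, with a wide interval for so few genes. These were lncRNA:let7C, lncRNA:yar, lncRNA:Hsromega and lncRNA:Vinr. The gene lncRNA:yar lies beside yellow and has been linked to sleep, and its summit lay 779 bp upstream of the first of its 3 TSSs with a signal value of 425.9, rank 807 in replicate 1 and 612 in replicate 2. The heat shock gene lncRNA:Hsromega, whose RNA builds the nuclear omega speckles, had a summit of 381.0 between its 2 TSSs, 252 bp downstream of the first and 242 bp upstream of the other. It ranked 668 in replicate 1 and 1362 in replicate 2, and a weaker summit of 135.6 lay 1413 bp downstream of the first TSS. The gene lncRNA:Vinr, known from the response to virus infection, had a summit of 356.0 at 591 bp downstream, rank 1098 in replicate 1 and 877 in replicate 2.

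No optimal summit lay in the windows of lncRNA:roX1 and lncRNA:roX2, the RNAs of X chromosome dosage compensation, nor at lncRNA:bxd and lncRNA:iab8 of the bithorax complex, lncRNA:flam, a source of piRNAs, lncRNA:cherub, known from neural stem cell tumours, lncRNA:acal, lncRNA:noe, lncRNA:CRG, lncRNA:mimi, lncRNA:dntRL, lncRNA:TS1, lncRNA:TS2 or lncRNA:TS4. At lncRNA:roX1 the pooled list had an entry of 51.4 and at lncRNA:acal one of 72.9, both below the lowest value of the optimal list. The window of lncRNA:roX2 had a single entry of 17.7 in replicate 2 and none in the other lists. Of the snoRNA host genes of the Uhg series, which the rule leaves out by name, Uhg4 had a summit of 336.3 and Uhg2 one of 133.6. Both also lie close to a protein-coding TSS, 615 bp from that of Boot and 284 bp from that of Bka. Uhg1, Uhg3, Uhg5, Uhg7 and Uhg8 had no optimal summit.

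Of the 20 strongest summits, 6 lay in introns of protein-coding genes, all named here. In the introns of osa, which encodes a subunit of the Brahma chromatin remodeller, lncRNA:CR46035 had 3 summits. The strongest, 735 bp downstream of its TSS, had a signal value of 1523, with 977.6 in replicate 1 and 539.8 in replicate 2. The others had signal values of 524.8 and 147.6, and the neighbour lncRNA:CR46036 had a summit of 490.2 in the same gene. In an intron of pnt, which encodes an effector of EGFR signalling, lncRNA:CR46090 had a summit of 1501, rank 28 in replicate 1 and 47 in replicate 2. In an intron of so, a homeodomain factor that specifies the eye, lncRNA:CR44203 had a summit of 759.0 that lay 758 bp from the TSS of CG11145. That peak was uneven, with rank 710 in replicate 1 and 78 in replicate 2.

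The intron of LpR2, a lipoprotein receptor, held a summit of 941.0 at lncRNA:CR46102, 153 bp downstream of its TSS. The intron of CHES-1-like, a forkhead factor, held one of 711.4 at lncRNA:CR43287, and that of Hipk, a protein kinase, one of 648.2 at lncRNA:CR45808, 71 bp upstream of the TSS. In all, 74 of the 212 summits lay within protein-coding genes, 64 genes counting those that overlap each other, and osa held 4 of them, the most. The gene kis, a chromatin remodeller, held 3, as did the overlapping genes Mi-2 and Su(Tpl), and none of the others held more than 2.

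Outside protein-coding genes lncRNA:CR44619 on X had a pair of strong summits on either side of its TSS, 476 bp upstream with a signal value of 1467 and 490 bp downstream with 1335. In replicate 1 these had 1020 and 803.8, and in replicate 2 they had 454.5 and 534.7, so the order of the pair differed between replicates. The summit of lncRNA:Vinr lies at -1382 bp from this TSS, and 4 more optimal summits lay within 5 kb downstream. On 3L lncRNA:CR44713 had 3 summits, the strongest of 1749 at 729 bp upstream, with rank 18 in replicate 1 and 29 in replicate 2. Its neighbour at chr3L:11246425 had 371.9, so 2 of the 3 summits lie close together.

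The remaining members with the strongest peaks had values between 1002 and 582.6. They were lncRNA:CR45640 at 1002, asRNA:CR43426 at 824.9, lncRNA:CR44676 at 823.1, lncRNA:CR45643 near tara at 795.6 and lncRNA:CR44723 at 755.1. Below them were lncRNA:CR46113 at 722.8, lncRNA:CR44363 at 664.4, lncRNA:CR45737 at 654.7 and lncRNA:CR44339 near Psc at 582.6. Each of these 9 was well inside the 4809 strongest peaks of both replicates, the lowest of their ranks being 747 for lncRNA:CR44339 in replicate 2. Genes with 3 summits, the most, were lncRNA:CR32218, lncRNA:CR43650, lncRNA:CR44713, lncRNA:CR44723, lncRNA:CR44971, lncRNA:CR45243, lncRNA:CR45643 and lncRNA:CR46035. Not all of these summits are separate. At lncRNA:CR44971 a pair matched the same entry in each replicate, rank 950 in replicate 1 and 5168 in replicate 2. At lncRNA:CR46035 a pair matched the same entry of replicate 2, rank 1542. At lncRNA:CR44713 and lncRNA:CR44723 a pair of summits lay within the bounds of 1 peak. The summits of lncRNA:CR45243, beside fng, a modifier of Notch, had 514.8, 332.9 and 321.4. They ranked higher in replicate 1 (230, 518 and 876) than in replicate 2 (5202, 6343 and 1813). The strongest of them lay 790 bp from the TSS of fng.

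**Figure D5:**
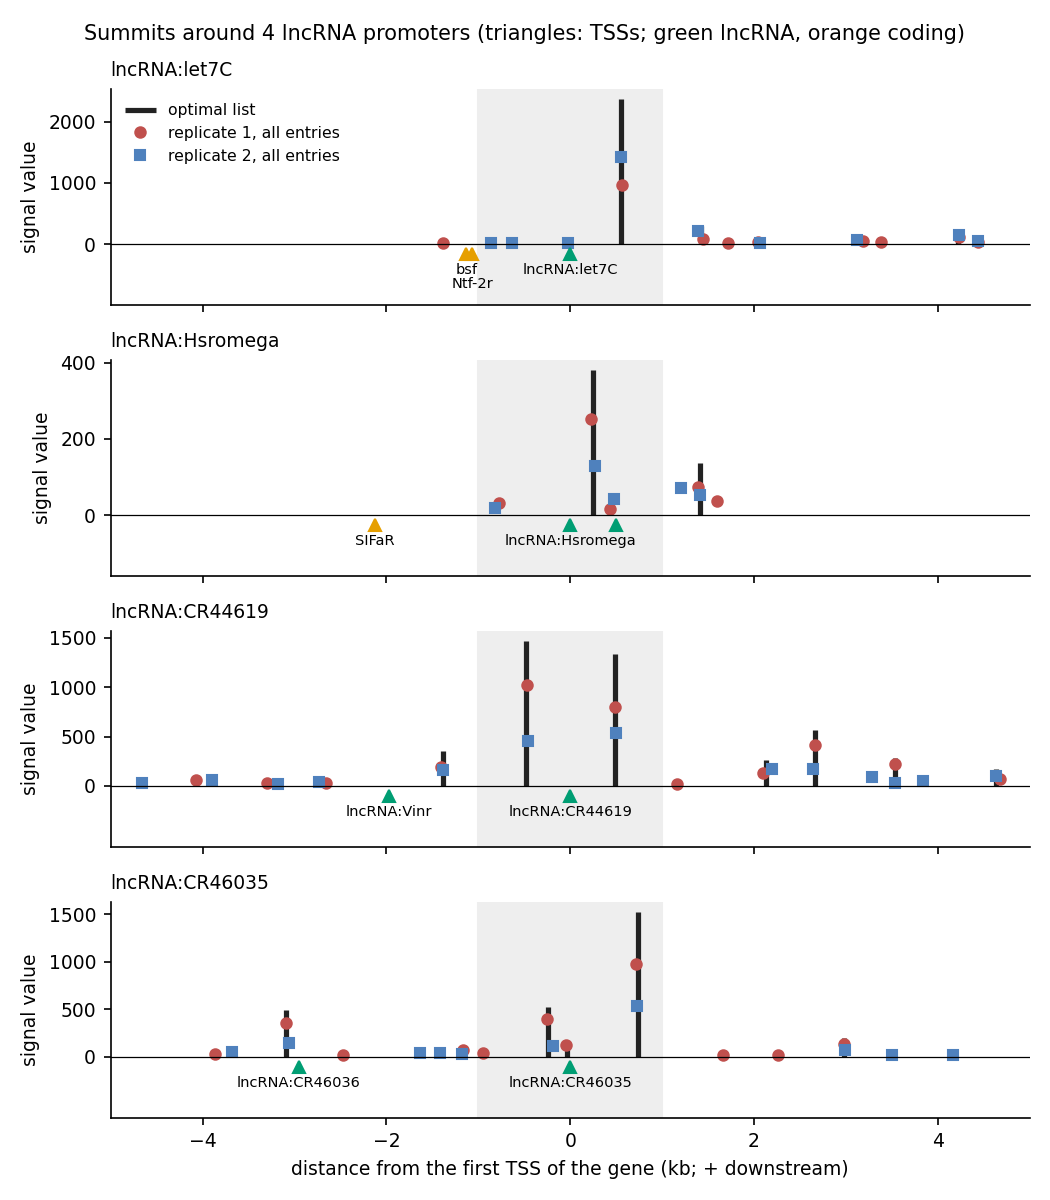
Signal value of each summit against its distance in kb from the first TSS of the gene, for 4 lncRNA promoters, with the 1 kb window shaded. Black lines are optimal peaks, circles and squares all entries of replicates 1 and 2, and triangles TSSs. Each list has its own signal scale. The single peak of 2366 at lncRNA:let7C and the pair of 1467 and 1335 at lncRNA:CR44619 stand above all others of their panels.

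Some lncRNA promoters lie in runs, and windows in a run overlap. Of 51 runs of at least 4 TSSs with gaps of at most 10 kb, 15 had a summit, and 34 of their 260 TSSs, 13.1%, had one, against 10.6% of all members. A run of 9 TSSs on 3L, from lncRNA:CR44713 to lncRNA:CR44717 and neighbours, had 4 TSSs with a summit, from 3 summits. A run of 9 TSSs on 3R with lncRNA:CR45639, lncRNA:CR45640 and lncRNA:CR45643 also had 4 with a summit, from 4 summits. Of the 212 summits, 16 had another optimal summit within 250 bp, or 7.55%, against 6.24% of all 4809.

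Promoters of genes with the asRNA prefix had few summits. Of the 222 asRNA TSSs, 8 had one, 3.60% (1.84% to 6.95%), against 186 of the 1607 lncRNA TSSs, 11.6% (10.1% to 13.2%). In replicate 1 the shares were 4.95% at asRNA TSSs and 12.4% at lncRNA TSSs, and in replicate 2 they were 4.50% and 11.2%. Of the 142 TSSs inside an exon of a protein-coding gene, 3 had a summit, 2.11%, against 62 of 460 in introns, 13.5%, and 129 of 1227 outside protein-coding genes, 10.5%. TSSs on the same strand as their host gene had 13.0%. Those on the opposite strand had 44 of 432, or 10.2%, near the 10.6% of all members, so the low share went with the prefix and not with this position.

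By arm, the share with a summit was 14.3% on 3L, 11.4% on 2R, 10.3% on X, 9.47% on 3R and 8.28% on 2L, with overlapping intervals for most neighbours in that order. The interval of 3L, 11.3% to 17.9%, lies above that of 2L, 6.12% to 11.1%. These intervals count TSSs as separate although neighbours can share a summit, and shares of protein-coding TSSs by arm are not given here. On chromosome 4, 0 of 16 promoters had one, which allows a share of up to 18.8%. By distance from the nearest protein-coding TSS, the share was 13.5% of the 378 promoters between 1 and 2 kb away. It was 12.3% of the 594 between 2 and 5 kb, 8.42% of the 392 between 5 and 10 kb and 7.96% of the 465 beyond 10 kb. Of these bins, only windows in the nearest reach sequence within 1 kb of a protein-coding TSS, and summits there count in its 13.5%. Without such summits the share over all members was 9.79%, and that of the nearest bin alone is not given here. Just around the limit of the rule, 16.5% of lncRNA TSSs between 500 and 1000 bp from a protein-coding TSS, which were left out, had a summit. Of those between 1000 and 1500 bp, which were kept, it was 15.8%. Windows on both sides of this limit reach sequence within 1 kb of a protein-coding TSS.

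Other properties of the promoters differed little. The median exonic length was 655 bp for TSSs with a summit and 677 bp for those without. The median GC content of the windows was 41.8% in both. Of 23 TSSs inside an annotated transposable element, 0 had a summit, which allows up to 13.0%, against 194 of the 1806 others.

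Short motifs at the summits gave small counts. They were searched on both strands within 50 bp of the summits, and in windows 500 bp to the sides of the same summits. GAGAGA, the letters bound by GAGA factor, was found at 13 of the 212, or 6.13% (3.62% to 10.2%), against 366 of the 4597 other optimal summits, 7.96%, and 5.19% to the sides. In replicate 1 it was at 4.46%, against 6.43% of its other summits, and in replicate 2 at 10.1%, against 9.48%, so the order differed between replicates. AGAGAG, which overlaps it, was found at 14, or 6.60%, against 9.77% of the others and 6.60% to the sides.

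CACGTG, an E-box, was found at 0 of 212 optimal summits, which allows up to 1.42%, against 0.957% of the others and 1.42% to the sides. It was at 4 of 208 member summits of replicate 2, or 1.92%, against 1.20% of its other summits, and at 0 of 224 in replicate 1. TATCGA, part of the DREF and BEAF-32 sites, was found at 1.42%, against 3.65% of the others and 4.95% to the sides. AGATAA, bound by factors of the serpent and pannier kind, was at 4.25%, against 6.63% of the others and 7.31% to the sides. CAGGTA, the core of the Zelda site, was at 1.42%, against 1.98% of the others and 2.12% to the sides. TGACTC, part of the AP-1 site, was at 2.36%, against 2.91% of the others and 3.54% to the sides. TAATTA, a homeodomain site, was at 4.72%, against 5.98% of the others and 5.90% to the sides.

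The 8-mer CAAAGTCC had been looked at in earlier results of these data, so its counts here are no independent finding. It was found at 6 of the 212 summits, 2.83% (1.30% to 6.04%), against 88 of the 4597 others, 1.91%. In the windows to the sides it was found at 0 of the 212, which allows up to 1.42%, and at 0.228% of the others. In replicate 1 alone it was at 3 of 224 member summits and in replicate 2 alone at 7 of 208. Within 100 bp of the TSS it was found at 0 of the 194 promoters with a summit, which allows up to 1.55%, and at 8 of the 1635 without. The sites are shown to place the 8-mer at its promoters, 4 of the 6, since those at lncRNA:CR43415 and lncRNA:CR44830 lie on an arm whose sequence is not printed. The sites were chosen after their values had been seen. Each line gives 30 bp of dm6 with the 8-mer in capitals, on the strand that reads CAAAGTCC, here the minus strand.
asRNA:CR44179, chr3R:25493989-25494018: gtaaccagttcCAAAGTCCacttagtcttt
lncRNA:CR44661, chrX:15080105-15080134: cgtaaaccgtcCAAAGTCCaaaccgtcagt
lncRNA:CR44661, chrX:15079343-15079372: cgccgctgatcCAAAGTCCaatatatgcca
lncRNA:CR32111, chr3L:12628318-12628347: ttggccgggtgCAAAGTCCaggaggaaccg
The gene lncRNA:CR44661 holds the 8-mer at both of the summits shown for it, 177 bp downstream and 588 bp upstream of its TSS, with signal values of 257.7 and 221.2. All 4 summits ranked within the strongest 4809 of replicate 2, and lncRNA:CR32111 ranked 6547 in replicate 1 and 1291 in replicate 2.

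A few strong summits were in 1 replicate only. In replicate 1 the best ranked summits with no entry within 200 bp in the full list of replicate 2 were at lncRNA:CR45568 with 179.1, rank 1288, lncRNA:CR42794 with 172.3, rank 1394, and lncRNA:CR44417 with 122.9, rank 2289. In replicate 2 they were at asRNA:CR45868 with 133.0, rank 1279, lncRNA:CR45169 with 123.4, rank 1449, and lncRNA:CR45643 with 89.4, rank 2595. An optimal peak lies within 200 bp of 5 of these 6, all but the site at lncRNA:CR45643. The optimal peak at asRNA:CR45868 had an entry in both replicates, rank 1823 in replicate 1 and 7843 in replicate 2. Over all 212 optimal summits, 1 had no entry in replicate 1 and 3 had none in replicate 2. At the lower edge of the optimal list lay lncRNA:CR44526 with 128.8, lncRNA:CR9162 with 127.8 and lncRNA:CR43650 with 127.1. Just below it in the pooled list lay lncRNA:CR44893 with 126.4, lncRNA:CR44608 with 126.3 and lncRNA:CR44222 with 125.6.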

How the data were processed

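Peak lists of 2 replicates, of the pooled replicates and the optimal list were read as deposited, in dm6. Peak height is the authors' signal value, deposited in the lists, and significance is the −log10 q value that the authors deposited. The p-value column holds no values. According to text files deposited with them, a replicate's list was called from its own alignment with a control common to both, and these lists with the pooled one gave the optimal list. The aligner, peak caller and depth are not given in the sources used here. All 4809 optimal peaks have the highest −log10 q of the list, 4.10, so peaks were ranked by signal, and signal values of different lists were not compared.

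TSSs came from Ensembl release 115 (BDGP6.54, the dm6 assembly), and sequence from the NCBI copy. Coordinates are 1-based. A TSS counts as having a summit when one lies within 1 kb. Summits within 200 bp were called shared. Sequences on arm 2R are not printed. Motifs, all looked at in earlier results of these data, were counted within 50 bp of a summit. Scripts used Python 3.11.15, numpy 2.4.6, pandas 2.3.3 and scipy 1.17.1 and were tested on simulated peaks. No test was made between sets. The limit of a count of 0 is 3 counts.

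The members and lists were chosen with earlier results of these data known. Named genes are those of the 20 strongest summits, those with the most summits (8 tied), the best ranked in 1 replicate only, those at the edge of the optimal list, and known lncRNAs. Genes named otherwise, such as miRNA hosts, hosts of several summits and CAAAGTCC sites, were chosen after their values were seen, as were the distance bins and runs. Alternatives were other windows, thresholds, single replicates and overlap distances.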

Additional observations from a re-analysis of the deposited data

Results flagged for a closer look

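In the pooled list, 53 entries outside the optimal list lay in windows of lncRNA promoters with the same highest −log10 q value as the optimal peaks, 4.10. They fall in the windows of 64 TSSs, of which 52 had no optimal summit, and their signal values lie between 106.7 and 126.4, below the optimal list. In all, 1481 pooled entries outside the optimal list have that q value. No control samples were analysed here, and what these entries are was not tested.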

How the results depend on the processing

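The share of lncRNA promoters with a summit was 10.6%. It was 7.05% in windows of 500 bp, 17.5% in windows of 2 kb and 6.29% with the stronger part of the optimal list. With all pooled entries, background included, it was 40.0%. It was 9.79% without summits within 1 kb of protein-coding TSSs, and between 10.4% and 11.5% on 1 replicate. The density ratio of 2.82 was 3.16 in windows of 500 bp, 3.47 with the stronger part of the list, 2.71 without sequence near protein-coding TSSs, 2.73 without repeats, 2.14 in introns, 3.57 outside protein-coding genes, and 2.87 to 2.94 on 1 replicate. The ratio of median signal values, windows over all summits of the list, was 1.19. It was 1.08 in windows of 500 bp, 1.25 without window summits near protein-coding TSSs, and 1.10 to 1.13 on 1 replicate. The mean share of summits found in the other replicate, 67.7%, was 60.3% within 100 bp and 59.4% over all entries. The downstream share of 51.3% was 52.7% with 1 TSS per gene and 50.9% to 52.5% on 1 replicate. The order of member and other summits turned for 5 motifs: CACGTG, with 2.83% against 2.26% within 100 bp of the summit and 1.92% against 1.20% in replicate 2, TAATTA, with 11.8% against 11.0% within 100 bp, and GAGAGA (10.1% against 9.48%) and CAGGTA (2.40% against 2.35%) in replicate 2, and TGACTC in replicate 1 (2.23% against 2.22%). Of the alternatives, 21 were labelled as moving a main result and 6 were not. That label did not follow size. A downstream share of 52.5% against 51.3% was labelled as moved, and 70.9% of summits shared within 400 bp, against 67.7%, was not. Nor does it mean a reversal, since every density and signal ratio listed stayed above 1. The density alternatives without repeats, in introns and outside protein-coding genes were chosen after seeing the data. No paired analysis was possible because the series has 1 group. Depth is unknown, so what it limits cannot be given.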
